A study of Andrias davidianus with 4 samples.

Results

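The 57 unigenes described here were strongly reduced in the skin of albino Chinese giant salamanders (Andrias davidianus), which are large amphibians of streams, but were still read there. A unigene is an assembled transcript sequence, and the 57 were found among 110708 listed unigenes. Their level was taken in CPM, the unique counts of a unigene divided by the total of its library and scaled to a library total of 1000000. A member had a mean of at least 20 CPM in wild type skin, a mean in albino skin of at most 1/8 of that, and at least 1 unique count in each albino library. Its wild type libraries lay within 2-fold of each other, and it was not among the 200 unigenes with the highest mean CPM over the 4 libraries. The members were thus selected on the measured difference in CPM between albino and wild type skin, so the size of their reduction is given as a description, with no test.

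The study compared skin of 2 groups, with 2 albino type libraries and 2 wild type libraries made from total RNA after removal of ribosomal RNA. The labels give the tissue as skin and the genotype as albino type or wild type. They name no lesion behind the albino type, no age and no treatment, and they do not say whether the replicates came from separate animals. Unique counts summed to 17361979 and 17547197 in albino replicates 1 and 2 and to 16854176 and 17256053 in wild type replicates 1 and 2. The files pair no unigene with a gene name or a sequence, so the members carry no known function here, and the skin label was not checked against marker genes.

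Colour in amphibian skin comes from several kinds of pigment cell. Melanophores make melanin from the amino acid tyrosine in melanosomes, with tyrosinase as the enzyme of the first step, while xanthophores hold yellow pigments and iridophores hold reflecting purine crystals. Albino animals lack melanin. None of the members can be assigned to this pathway from the files. In bulk skin, fewer cells of a type and less RNA per cell cannot be told apart.

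A level of at least 20 CPM in wild type skin was reached by 5174 unigenes. Of these, 5115 had wild type libraries within 2-fold, and 4915 were also outside the 200 most abundant. In albino skin, 65 of the 4915 were at or below 1/8 of their wild type level, and 8 of the 65 had no unique count in at least 1 albino library. The remaining 57 made up 1.16% of the 4915.

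The members together held 8488 and 7137 unique counts in albino replicates 1 and 2, against 105478 and 107847 in the wild type libraries. That was 0.0489% and 0.0407% of the albino libraries and 0.626% and 0.625% of the wild type libraries. The exact 95% binomial intervals cover counting error only. They ran from 0.0479% to 0.0499% in albino replicate 1 and from 0.0397% to 0.0416% in albino replicate 2, without overlap. In wild type replicates 1 and 2 they overlapped, at 0.622% to 0.630% and 0.621% to 0.629%. In the members' sum, the albino libraries thus differed by more than counting error. The overlap in wild type is also one of sums and need not hold for single members, which differed in opposite directions. The highest member had 14763 and 11737 unique counts in wild type replicates 1 and 2. A member of 1169 bases had 2588 and 4774. Single members had 2 to 2188 unique counts in albino replicate 1 and 1 to 1152 in albino replicate 2, with medians of 49 and 58. In wild type they had 264 to 14763 and 318 to 11737, with medians of 797 and 918. Albino values thus rest on far fewer reads than wild type values.

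**Figure D1:**
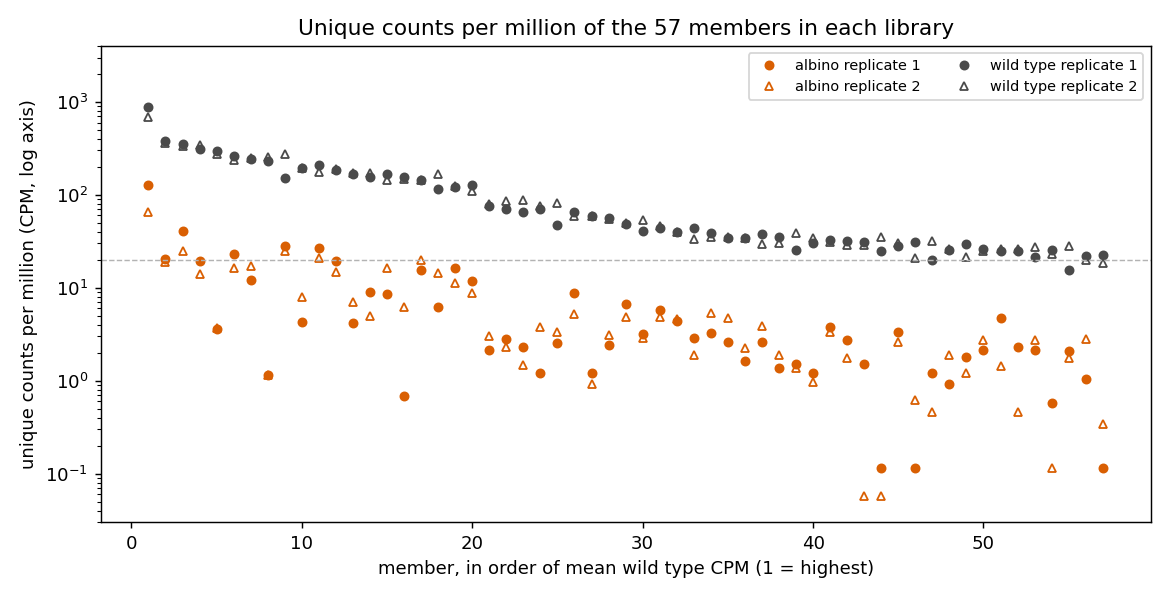
CPM (log axis) of each of the 57 members in the 2 albino libraries (orange) and the 2 wild type libraries (grey), with members ordered by mean wild type CPM along the horizontal axis and the 20 CPM limit as a dashed line. The albino points of every member lie below its wild type points, which the rule forces. The albino points of a member are spaced from 1.01-fold to 26.3-fold apart.

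The member with the highest wild type level, UniGene_4027, is 798 bases long. Albino replicates 1 and 2 had 2188 and 1152 unique counts, against 14763 and 11737 in wild type replicates 1 and 2. This corresponds to 95.8 ± 42.7 CPM in albino and 778 ± 138 CPM in wild type (SD, n = 2 each), a level 8.12-fold lower in albino. It was also the highest member per length, with deposited FPKM, which is scaled to length and depth, at 212 and 111 in the albino pair and at 1400 and 1120 in the wild type pair. Albino replicate 1 was 1.92-fold above albino replicate 2, and both lay below either wild type library, as the rule forces. UniGene_4027 alone held 25.8% and 16.1% of the members' unique counts in the albino libraries and 14.0% and 10.9% in the wild type libraries. Without it, the members held 0.0363% and 0.0341% of the albino libraries and 0.538% and 0.557% of the wild type libraries.

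The deepest reduction was found for UniGene_58741, a unigene of 4628 bases. Albino replicates 1 and 2 held 2 and 1 unique counts of it, against 417 and 614 in the wild type pair. Its level was 0.0861 ± 0.0412 CPM in albino and 30.2 ± 7.67 CPM in wild type (SD, n = 2 each). With the counts of each group summed, the level in albino was 352-fold lower, with an exact 95% counting interval from 120-fold to 1708-fold. By FPKM it stood at 0.0249 and 0.0125 in the albino pair, against 6.06 and 8.58 in the wild type pair. Both albino libraries were near the limit of detection, so the size of this reduction is known only within that wide interval.

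A second very deep reduction rested on more reads. A member of 2161 bases had 20 unique counts in each albino library, against 3926 and 4370 in the wild type libraries. It averaged 1.15 CPM in albino and 243 CPM in wild type, a 212-fold lower level. The albino libraries differed by 1.01-fold. A member of 2025 bases had 63 and 65 unique counts in albino and 5033 and 4710 in wild type, which is 77.9-fold lower, and its albino libraries were as close, at 1.02-fold. These 2 members had the closest albino libraries of all 57.

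Most reductions were smaller. Between 8-fold and 16-fold lower levels were found for 27 members and between 16-fold and 32-fold for 20. A further 4 members were 32-fold to 64-fold lower, and 6 were more than 64-fold lower, the 2 deepest at 212-fold and 350-fold by mean CPM. The median was 16.8-fold lower, or -4.07 on the log2 scale, against 1.01-fold lower for the other 4858 unigenes that met the wild type steps of the rule. That every member was at least 8-fold lower follows from the rule. Across the 57 members, the log2 change was nearly unrelated to the log2 wild type CPM (Pearson's r = 0.045, Spearman's rho = 0.055), both of which contain the wild type values.

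After UniGene_4027, the 9 next members by wild type CPM ran from 1.15 to 33.1 CPM in albino and from 194 to 373 CPM in wild type. The second by wild type CPM, of 2722 bases, had 355 and 329 unique counts in albino against 6418 and 6309 in wild type, and was 19.0-fold lower. The third, of 1574 bases, had 713 and 440 in albino against 5917 and 5805 in wild type, and was 10.4-fold lower. The fourth, of 1318 bases, had 337 and 245 in albino against 5224 and 5934 in wild type, and was 19.6-fold lower. In each of these, the albino libraries lay far below both wild type libraries, a separation that the rule forces. Albino replicate 1 was the higher albino library in each. The 10 leading members held 57.2% and 47.9% of the members' unique counts in the albino libraries and 52.8% and 51.3% in the wild type libraries.

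Order per length differed from order by CPM. After UniGene_4027, the next by wild type FPKM was a member of 575 bases with a mean of 37.4 FPKM in albino and 479 FPKM in wild type. A member of 819 bases followed, with 35.4 FPKM in albino and 330 FPKM in wild type. A member of 438 bases had 13.0 FPKM in albino and 327 FPKM in wild type, and one of 2302 bases had 8.61 FPKM in albino and 307 FPKM in wild type. The last by wild type FPKM, of 4215 bases, had 0.309 FPKM in albino and 5.42 FPKM in wild type. Over the members, the median was 2.79 FPKM in albino and 43.0 FPKM in wild type. For the other unigenes that met the wild type steps, the medians were 16.2 FPKM in albino and 16.1 FPKM in wild type.

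The limits of the rule were not gaps in the data. The least reduced members were 8.04-fold and 8.08-fold lower, and the nearest unigenes outside the limit were 7.92-fold and 7.85-fold lower. The member with the lowest wild type level had 20.5 CPM there, and the nearest unigene below the limit had 19.8 CPM and was 11.0-fold lower. The members with the widest wild type pairs differed by 1.80-fold between these libraries, and the 2 unigenes left out by that step alone differed by 2.24-fold and 2.38-fold. UniGene_4027 ranked 267 of all unigenes by mean CPM and was the nearest to the limit of 200.

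Of the 200 most abundant unigenes, 3 met every other step. The most abundant of them, of 1563 bases, had 603 and 775 CPM in albino and 13883 and 15299 CPM in wild type, 21.2-fold lower, but 7.13-fold lower by FPKM. One of 9025 bases had 6 and 96 unique counts in albino and 19646 and 22953 in wild type. The third, of 674 bases, was 9.65-fold lower by CPM and 6.24-fold lower by FPKM.

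The 8 unigenes without unique counts in at least 1 albino library formed the other edge. Of these, 4 had none in either albino library, and 3 had 1 or 2 unique counts in a single albino library. The eighth, of 524 bases, had 0 and 39 unique counts in albino and 485 and 310 in wild type. Wild type means of the 8 ran from 23.4 to 126 CPM, within the range of the members. Their median length was 619.5 bases.

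The members were shorter than other unigenes of like wild type level. Their listed lengths ran from 317 to 4651 bases, with a median of 1471 and quartiles at 870 and 2531. The other 4858 unigenes that met the wild type steps had a median of 2604 bases, with quartiles at 1631 and 4055, and reached 17720. Unigenes of like albino level were not longer than the members: the 9821 others from 1.89 to 6.97 CPM in albino had a median of 1434 bases, with 30.3% under 1000 bases, against 29.8% of the members. Length was not used by the rule. Unigenes are not replicates, so this difference was not tested. Members made up 3.18% of the 535 such unigenes under 1000 bases, 1.50% of the 1203 from 1000 to under 2000, 1.16% of the 1124 from 2000 to under 3000, 0.508% of the 787 from 3000 to under 4000, and 0.395% of the 1266 at 4000 bases or longer. The share was smaller with each step in length, and the last 2 rest on 4 and 5 members.

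**Figure D2:**
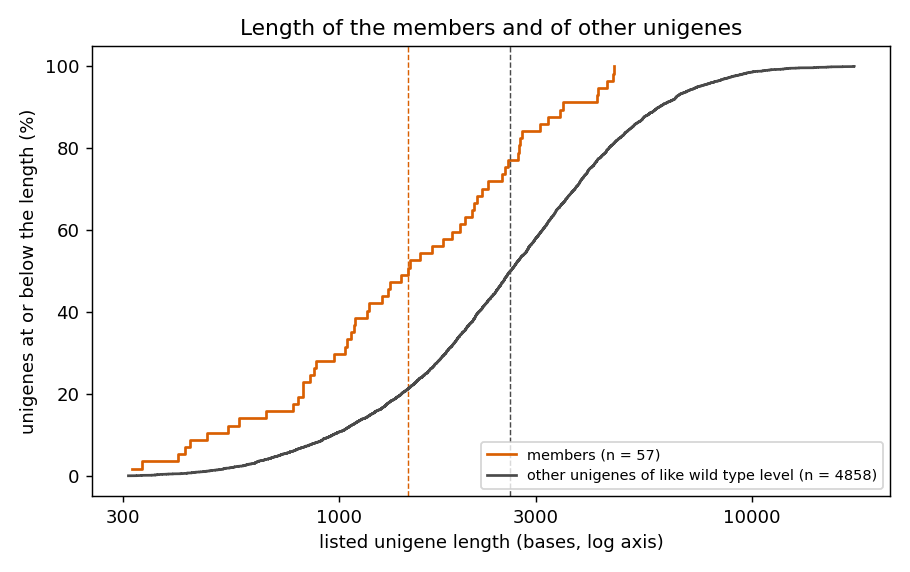
Cumulative share of unigenes (%) by listed length (bases, log axis) for the 57 members (orange) and the other 4858 unigenes that met the wild type steps (grey), with medians as dashed lines. The members' curve lies to the left, with medians of 1471 and 2604 bases.

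The difference in median length was widest in the members of the lowest wild type level and next widest at 200 CPM or more. Of the members with 20 to under 50 CPM in wild type, 29 in number, the median length was 1089 bases, against 2598 over all 2999 unigenes in that range. In the range from 50 to under 100 CPM, 8 members had a median of 2395 bases, against 2676 over 1064 unigenes. From 100 to under 200 CPM, 11 members had a median of 2531 bases, against 2673 over 525 unigenes. At 200 CPM or more, 9 members had a median of 1486 bases, against 2169 over 327 unigenes. The median reduction did not follow length step by step. It was 11.0-fold in members under 1000 bases, 14.9-fold from 1000 to under 2000, 23.4-fold from 2000 to under 3000, 12.1-fold from 3000 to under 4000 and 29.0-fold at 4000 bases or longer. Across all 57, log2 change and log2 length had Pearson's r = -0.25 and Spearman's rho = -0.29, as a description across unigenes that share the same libraries.

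The deposited FPKM was above 0 for 17101 and 16847 unigenes without a unique count in albino replicates 1 and 2. In wild type replicates 1 and 2 these numbered 17132 and 17005. Any value above 0 was counted, however small, such as 2.38e-32 in albino replicate 2 for a unigene of 479 bases. The numbers are thus not unigenes with a sizeable FPKM, but FPKM does not rest on the unique counts alone. The sources used here do not give its calculation, and whether it counts reads shared between unigenes was not tested. All 57 members were lower in albino by FPKM as well, by 5.77-fold to 391-fold with a median of 16.9-fold. At least 8-fold lower FPKM was found for 49 members, and the other 8 were under that size. On the log2 scale, the change by FPKM differed from the change by CPM by at most 0.25 for 50 members and by more than 0.5 for 3. FPKM comes from the same libraries and the same contrast as the rule, so it is no independent evidence of the reduction.

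**Figure D3:**
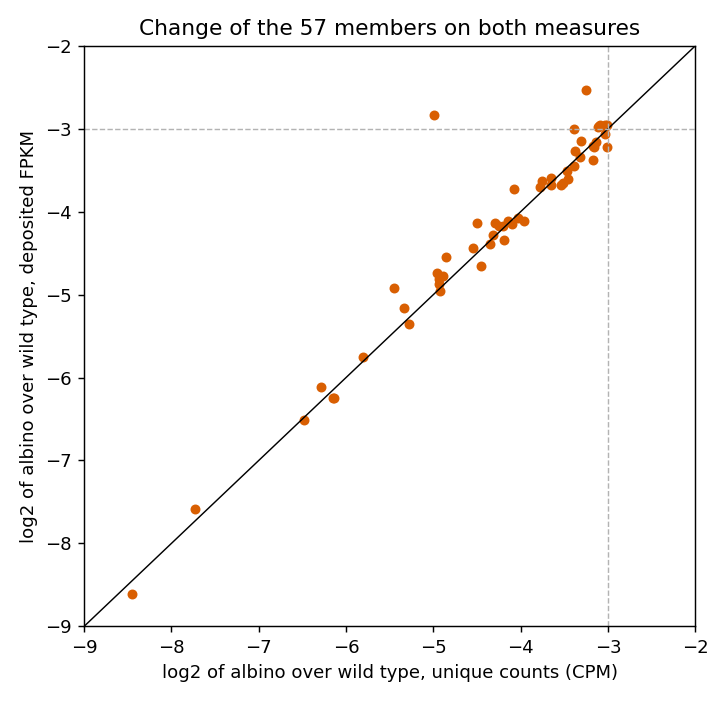
Log2 of mean albino over mean wild type by deposited FPKM (vertical) against the same by CPM (horizontal) for the 57 members, with the line of equality and the 8-fold limit (-3) dashed on both axes. All but 3 members lie within 0.5 of the line, and the point far above it is the member of 667 bases.

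The member of 667 bases stood farthest from that line. It had 75 and 138 unique counts in albino and 3289 and 3325 in wild type, a 31.8-fold lower level, but its deposited FPKM, at 14.5 and 32.7 in the albino pair against 161 and 174 in the wild type pair, was 7.10-fold lower. FPKM per unique count was set against the median of unigenes of like length in the same library, where at least 50 unique counts were present. For this member it lay 0.84 and 1.15 above that median on the log2 scale in albino and 1.04 and 0.93 below it in wild type. A member of 1089 bases was 9.50-fold lower by CPM and 5.77-fold lower by FPKM, and one of 2733 bases was 43.7-fold and 30.2-fold lower. For these 3 members, the size of the reduction thus depended on the measure.

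A member of 2302 bases had far more FPKM than its unique counts. It had 40 and 26 unique counts in albino and 1104 and 1503 in wild type, where its FPKM was 289 and 325. FPKM per unique count lay 3.39 and 3.13 above the median for its length on the log2 scale in the wild type libraries, the only deviation of more than 1 above it among the members there. Too few unique counts were present in albino for the same value. Its level was 40.3-fold lower by CPM and 35.7-fold lower by FPKM, so the deviation left the size of its reduction nearly as it was. In wild type replicates 1 and 2, 4 and 4 of the 57 members lay more than 0.5 below the median for their length (7.02% in each), against 9.92% and 9.08% of the other unigenes that met the wild type steps. More than 0.5 above it lay 4 and 3 members (7.02% and 5.26%), against 5.66% and 5.48% of those other unigenes.

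The albino libraries were not used separately by the rule, apart from its minimum of 1 count, and differed more in the members than in other unigenes of like wild type level. The absolute log2 difference between the albino libraries had a median of 0.51 over the members, with quartiles at 0.35 and 0.94. Over 4848 other unigenes of like wild type level read in both libraries, the median was 0.17. A gap of more than 2-fold was found for 13 of the 57 members (22.8%) and for 2.43% of the 4848. Members have fewer albino reads than those unigenes, which can widen such gaps, but the part this played was not tested. Among the 29 members from 1.89 to 6.97 CPM in albino, their interquartile range, the median gap was 0.50 and 4 were over 2-fold (13.8%). Other unigenes in the same range of albino CPM, 9799 in number, had a median gap of 0.35 and 9.14% over 2-fold. With 1 pair of albino libraries, no test of this spread was possible.

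**Figure D4:**
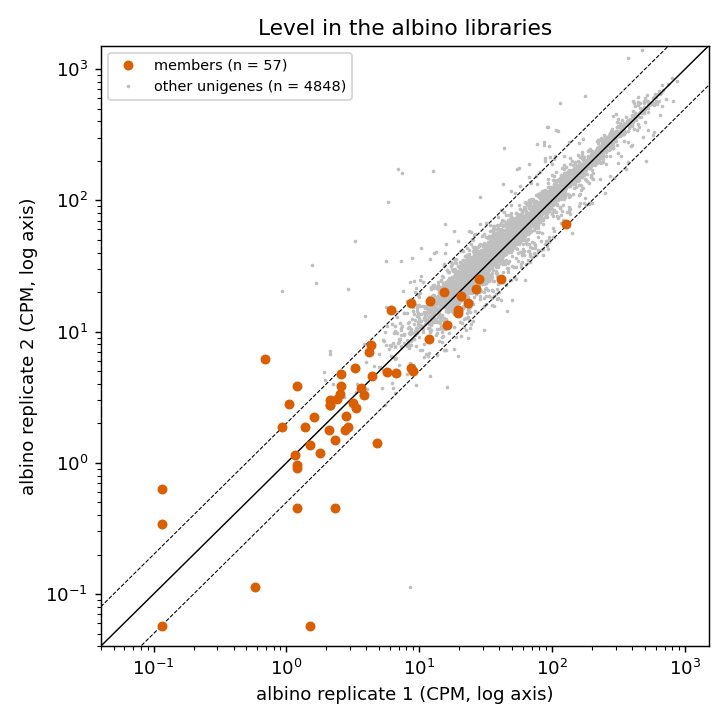
CPM in albino replicate 2 against albino replicate 1 (both log axes) for the 57 members (orange) and 4848 other unigenes of like wild type level (grey), with equality as a solid line and 2-fold gaps dashed. Of the members, 13 lie outside the dashed lines, on either side of equality.

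Neither albino library was always the higher one. Albino replicate 1 was the higher one for 33 members and albino replicate 2 for 24, or 35 and 22 with TMM-adjusted library sizes. Albino replicate 1 was the higher one for 57.9% of the members and 28.2% of the 4848 other unigenes by CPM, but for 61.4% and 68.8% with TMM-adjusted library sizes, so the order of these shares turned with the scaling. Of the 13 gaps over 2-fold, 6 were higher in replicate 1 and 7 in replicate 2. The exact 95% counting interval of the ratio, with column sums as library sizes, left out equality for 30 members. Of these, 16 were higher in replicate 1 and 14 in replicate 2. The intervals were not taken with other scalings or over other unigenes, so nothing about the members is read from these counts. All 7 members with fewer than 10 unique counts in an albino library had gaps over 2-fold, against 6 of the 50 with at least 10 in each. The lower albino count, which sets this split, is also part of the gap, so the contrast is partly built in.

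Wide gaps were found in both directions. The member of 2733 bases had 12 and 109 unique counts in albino, a gap of 8.99-fold, against 2600 and 2541 in wild type. A member of 2099 bases had 107 and 255 in albino, a gap of 2.36-fold, against 1953 and 2894 in wild type. With albino replicate 1 as the higher one, a member of 1973 bases had 83 and 25 in albino, a gap of 3.36-fold, against 415 and 449 in wild type. The widest gap was 26.3-fold, for a member of 1682 bases with 26 and 1 unique counts in albino and 530 and 499 in wild type. In all 4, both albino libraries stayed below both wild type libraries, as the rule forces for every member.

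Each albino library was also read on its own. At or below 1/8 of the mean wild type level in both albino libraries were 45 members, and the other 12 were so in a single library, with the higher albino library still at least 5.30-fold lower, where the rule allows 4-fold. The groups did not overlap for any of the 57, a separation that the rule forces. Of all 37893 tested unigenes, 33.0% were separated in this direction.

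The same steps were then applied with a single albino library, and the unigenes so chosen were read in the albino library that had not been used. Both readings share the wild type libraries. With albino replicate 1, 67 unigenes were chosen, a median of 18.3-fold lower in that library. In albino replicate 2, 46 of them (68.7%) were at least 8-fold lower, counting those with 0 unique counts, and the median was 13.7-fold, with a 0 set to 3 counts per library. Of the 4848 unigenes of like wild type level that replicate 1 did not choose, 0.536% were at least 8-fold lower in replicate 2. With albino replicate 2, 67 were again chosen, a median of 15.3-fold lower. In albino replicate 1, 48 of them (71.6%) were at least 8-fold lower, with a median of 14.3-fold, against 0.578% of those not chosen. Members were 49 of the 67 chosen with replicate 1 and 53 of the 67 chosen with replicate 2. Their rule had used both albino libraries, so these readings are a description of the members, with no test.

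**Figure D5:**
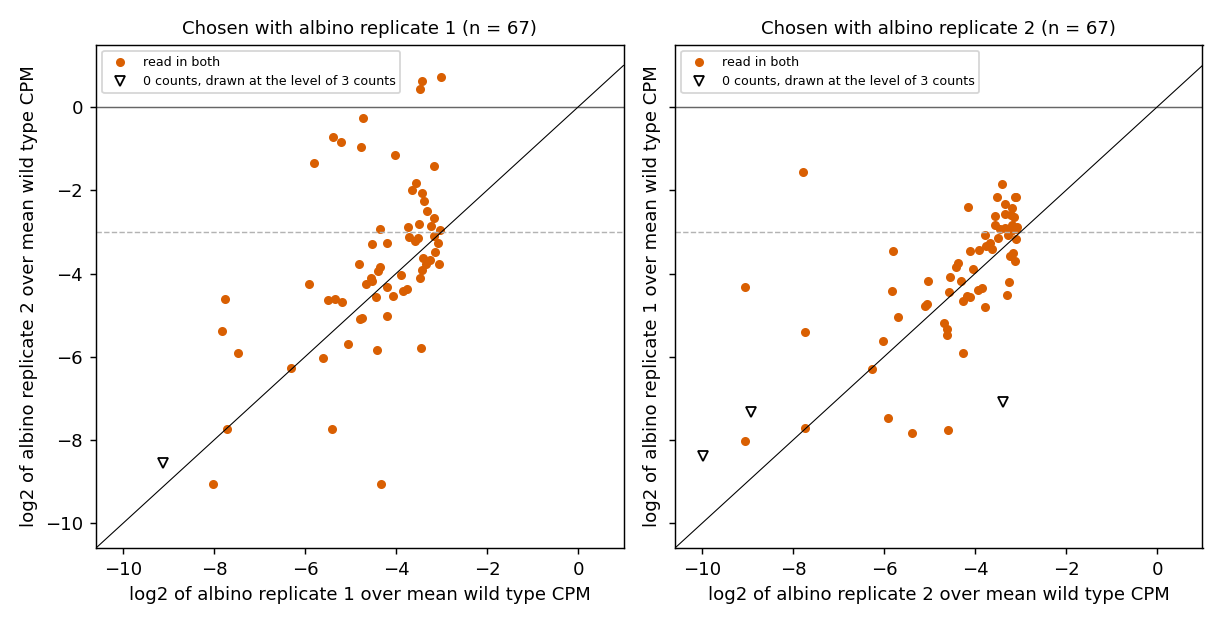
Log2 of a single albino library over the mean wild type CPM, for 67 unigenes chosen with albino replicate 1 and read in replicate 2 (left) and 67 chosen with replicate 2 and read in replicate 1 (right). Points at or below the dashed line (-3) are at least 8-fold lower in the library not used for the choice, triangles have 0 counts there, and at the left 7 points lie above -1.

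The 2 readings differed in their exceptions. Of the unigenes chosen with replicate 1, 7 were less than 2-fold lower in replicate 2, and 3 of these were higher there than in wild type. None of those chosen with replicate 2 was less than 2-fold lower in replicate 1, where the smallest reduction was 2.93-fold. None of the 7 was a member, since their mean over both albino libraries was too high.

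In the fit across all unigenes, edgeR's quasi-likelihood test called all 57 members lower, with a threshold of 0.05 on the adjusted p. Of the 37893 tested unigenes, 16.8% were called lower by the same test. DESeq2's Wald test also called all 57, against 10.3% of all tested. Since the rule used this contrast, nothing about the members is read from these counts. A standard error was back-calculated as the absolute log2 change divided by the square root of the edgeR test's F statistic. By this approximation, the median over the members was 0.24 and the largest value was 0.72. It can be too small where counts are few. For UniGene_58741, with 2 and 1 albino counts, it was 0.36, while the counting interval ran from 120-fold to 1708-fold. With TMM-adjusted CPM, 61 unigenes met the rule, the 57 members among them.

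The mirrored rule, with the groups exchanged, gave 42 unigenes that were strongly raised in albino and still read in wild type, against 57 members. Their median was 14.5-fold higher in albino, at 50.3 CPM in albino and 3.31 CPM in wild type. The members had medians of 3.01 CPM in albino and 49.3 CPM in wild type, so the low group stood at a like level in both classes. The gap between the libraries of the low group was a median of 0.51 (log2) for the members, in albino, and 0.37 for the mirrored class, in wild type. Gaps over 2-fold there numbered 13 of 57 and 4 of 42. These gaps come from different pairs of libraries, and by CPM the albino pair differed more in other unigenes too. Over other unigenes in the members' interquartile range of albino CPM, the median gap was 0.35 in albino and 0.25 in wild type. With TMM-adjusted library sizes the albino gap was 0.28 in those unigenes and 0.65 in the members. The wild type gaps were not taken with that scaling. The difference in gap is thus not read as a trait of either class. The median length was 1471 bases for the members and 2157 for the mirrored class, and 29.8% and 16.7% were under 1000 bases. These differences between the classes were not tested.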

How the data were processed

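The authors deposited 1 table per library, with replicates not pooled. Per the file headers, each lists unigenes with a length, unique counts and FPKM. The deposited unique counts are whole numbers and not normalized. The deposited FPKM values were scaled by the authors to length and library depth. Libraries were directional and made after removal of ribosomal RNA, per the labels' protocols. Trimmomatic is named in the submitters' processing notes, with its settings, the assembler, the aligner and the counter not given in the sources used here.

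CPM used column sums of the unique counts. The members, limits and comparisons were chosen with earlier results of these data known. Without gene names, the 2 unigenes named are the member with the highest mean wild type CPM and that with the lowest ratio of albino to wild type. All others are described without an identifier, and no gene list was applied. Across all unigenes, the quasi-likelihood test of edgeR 4.0.16 (under R 4.3.3) was run with TMM normalization, the default expression filter, group as the only factor, 2 residual degrees of freedom and Benjamini-Hochberg adjustment over 37893 unigenes. The spread between replicates, which the labels do not say came from separate animals, may be technical. DESeq2 was version 1.42.0. To obtain FPKM per unique count, FPKM was multiplied by the length and divided by the unique count, and its log2 was set against the median of 30 length bins per library. Counting intervals are exact and cover counting error only. Alternatives were other limits in the rule, other scalings, FPKM, each library left out, other filters and a replicate block.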

Additional observations from a re-analysis of the deposited data

How the results depend on the processing

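The 57 members numbered 28 at a wild type limit of 50 CPM, 132 at 1/4 of wild type and 30 at 1/16. With each library left out in turn, 60 to 67 unigenes met the rule, of which 49 to 54 were members. With a single wild type library, the step on wild type replicates was not applied. With FPKM in place of CPM 70 unigenes met the rule, of which 37 were members. The median length of 1471 bases was 1484 at 1/4, 2076 at 1/16, 1182 at 10 CPM and 2144 at 50 CPM, against 2619, 2593, 2470.5 and 2591.5 for the other unigenes of like level, so the members remained the shorter group with a smaller difference at the stricter limits. The median log2 change of -4.07 was -3.76 and -3.38 by FPKM with pseudocounts of 0.1 and 1, and -4.19 to -4.06 with a library left out. By FPKM without a pseudocount, a setting that was not planned, it was -4.08. The median albino gap of 0.51 was also 0.51 by FPKM and 0.47 with at least 10 counts in each albino library, but 0.65 with TMM-adjusted and 0.66 with DESeq2-scaled library sizes, both added after seeing the data. For other unigenes in the members' range of albino CPM it was 0.35, 0.28 and 0.28 by CPM and with these 2 scalings. Calls over all unigenes, 6170 higher and 6361 lower, were 3933 and 3888 by DESeq2, 3726 and 3766 at a minimum count of 50, 2497 and 2680 at an adjusted p under 0.01, and 1728 to 8183 and 1962 to 8421 with a library left out, where the lone library of a group is taken to vary as the other group does. They were 1728 and 1962 without wild type replicate 1 and 1820 and 2114 without wild type replicate 2. The replicate block gave 4463 and 4559. Same-numbered libraries deviated with a correlation of -0.13, and crossing the numbers, which was added after seeing the data, gave 6532 and 6888. All 57 members were called lower under each of these settings, against 16.8% of all tested unigenes in the main fit. The settings reuse the contrast that chose the members, so nothing is read from this. Depth limits the 7 members with fewer than 10 unique counts in an albino library.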

Other observations

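The 7 unigenes that were at least 8-fold lower in albino replicate 1 but less than 2-fold lower in albino replicate 2 were looked at after their values were seen. They were 416 to 3826 bases long, and albino replicate 2 was 13.2-fold to 25.1-fold above albino replicate 1. In wild type skin, replicate 1 was 1.75-fold to 1.995-fold above replicate 2 in all 7. The rule left out unigenes with wild type libraries more than 2-fold apart, so it sets the upper end of this range. Among the other 60 unigenes chosen with albino replicate 1, the same wild type ratio had a median of 1.003 and ran from 0.554 to 1.997. Some of these 60 had a like pattern, so it was not limited to the 7. A unigene of 6678 bases had 16 and 356 unique counts in albino against 1151 and 590 in wild type. Another, of 10152 bases, had 50 and 370 in albino against 1016 and 580 in wild type. One of the 7, of 1917 bases, had 119 and 3021 unique counts in albino replicates 1 and 2, against 6416 and 3292 in wild type replicates 1 and 2. The libraries of both groups thus differed within the group for these unigenes, and no test was made.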
